A study of Gallus gallus with 2 samples.

Results

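Thyroid hormone is built from tyrosine, and 9 chicken genes of its action inside target cells were examined here in breast muscle of birds fed added tyrosine. They encode the nuclear receptors THRA and THRB, the deiodinases DIO1, DIO2 and DIO3, the corepressor NCOR1, the coactivator NCOA1, and the retinoid X receptors RXRA and RXRG. The genes were chosen by name, and 5 of the 9 names (THRA, DIO2, NCOR1, NCOA1 and RXRG) stand among the 15073 genes listed for both libraries. THRB, DIO1, DIO3 and RXRA are not listed under these names or under older names of theirs, and they were not analysed here. No symbol was given for 5006 of the 15073 genes, so absence by name does not show that a gene was not expressed. Only genes with fragments in the control group are listed, so a gene seen in test group IV alone could not appear.

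Test group IV is 1 library made from breast muscle of Xichuan black-bone chickens whose basal diet contained 0.8% added tyrosine. The control group is 1 library of the same tissue and breed on the basal diet alone. Both were sampled at an age of 12 weeks after a fast of 12 h, and each library holds the pooled total RNA of 3 birds. No difference below therefore has a replicate check, no P-value is given, and the variation between birds is unknown. The libraries hold 14318101 counted fragments in test group IV and 13135159 in the control group. Of 8 skeletal muscle markers 2 are listed, TNNT3 and TNNI2 (troponin subunits of fast fibres), and their FPKM values summed to 18061 in test group IV and 17951 in the control group.

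Thyroxine, the main hormone released by the thyroid, enters cells through membrane transporters, and a deiodinase converts it to the more active triiodothyronine. DIO2 activates the hormone, DIO3 inactivates it, and DIO1 can do both. Triiodothyronine binds THRA or THRB, which sit on DNA as dimers with a retinoid X receptor. Without hormone the receptors hold corepressors such as NCOR1, which recruits a histone deacetylase, and with hormone they exchange them for coactivators such as NCOA1. In skeletal muscle this pathway is known for its control of energy use, calcium pumping and fibre type.

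NCOR1 was the member that differed most clearly between the diets. Its FPKM (the fragment count divided by transcript length and sequencing depth, which allows levels of different genes to be compared) was 32.3 in test group IV and 52.6 in the control group. It was counted with 3877 fragments in test group IV and 5789 in the control group. NCOR1 was thus 1.63-fold lower on added tyrosine, and its log2 fold change was -0.70 with a 95% counting interval from -0.76 to -0.64. This interval comes from the fragment counts of the gene and covers counting error only, since each group has 1 library. PCR copies were not told apart in these counts. With median ratio scaling the log2 fold change of NCOR1 was -0.79, with an interval from -0.85 to -0.73. NCOR1 lies on chromosome 19 of Galgal5 from 6466653 to 6508512, and the span of no other listed gene overlaps it.

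THRA, the receptor form that predominates in mammalian skeletal muscle, had an FPKM of 20.3 in test group IV and 17.8 in the control group. Its counts were 548 fragments in test group IV and 441 in the control group, with a log2 fold change of 0.19 and an interval from 0.01 to 0.37. The difference lay just outside counting error, and it was close to the median of all 11010 genes that reached an FPKM of 1 in either library, which was 0.09. These are called expressed genes below. After the libraries were scaled by their median ratio, the log2 fold change of THRA was 0.10 with an interval from -0.09 to 0.28, which includes no difference. THRA spans chromosome 27 from 4626754 to 4775528, a stretch of 148775 bases that overlaps 12 other listed genes. Its counted transcript model has 1883 bases, and reads were not separated here from those of the overlapping genes.

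NCOA1, a coactivator that brings histone acetyltransferases to the hormone-bound receptor, was nearly level. Its FPKM was 12.9 in test group IV and 13.9 in the control group, from 1067 fragments in test group IV and 1055 in the control group, with a log2 fold change of -0.11 and an interval from -0.23 to 0.02. With median ratio scaling it was -0.20, and the interval, from -0.32 to -0.07, then lay below 0. NCOA1 lies on chromosome 3 from 105921033 to 106086519.

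DIO2 was near the limit of this depth. It had 8 fragments in test group IV (FPKM 0.711) and 12 in the control group (FPKM 1.16). The log2 fold change was -0.71, but its interval from -2.21 to 0.70 allows a level well above as well as well below that of the control group. DIO2 lies on chromosome 5 from 40594965 to 40606615, and the transcript model that was counted has only 786 bases. A difference in DIO2 was not detectable at this depth.

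RXRG had 1 fragment in test group IV (FPKM 0.0411) and 2 in the control group (FPKM 0.0896). Neither count exceeds 3 fragments, the level up to which a count was not taken as measurable, so no fold is given. RXRG lies on chromosome 8 from 5154111 to 5168109. For a transcript of its length, 1699 bases, 3 fragments correspond to an FPKM of 0.123 in test group IV and 0.134 in the control group.

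**Figure D1:**
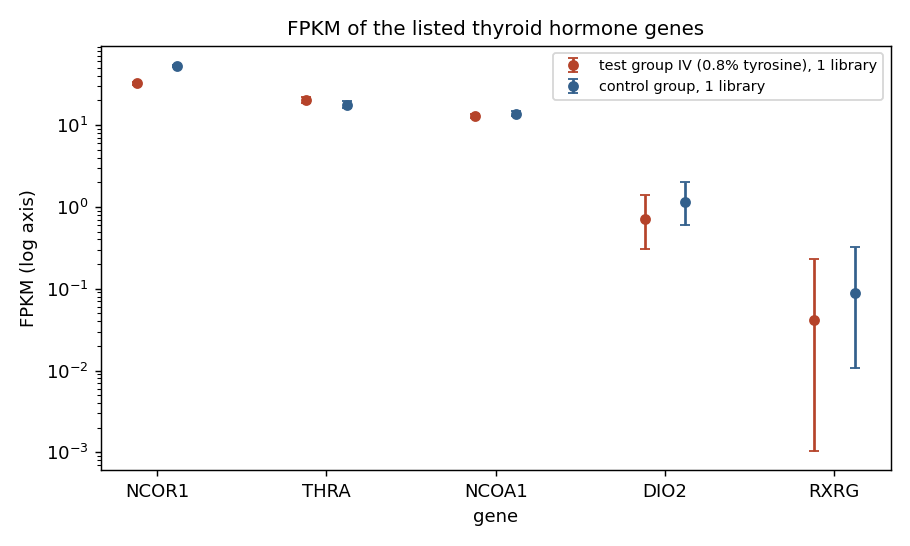
FPKM of each listed gene on a log axis in the 1 library of test group IV (red, left of each pair) and the 1 library of the control group (blue), with bars for the exact 95% Poisson interval of the count. NCOR1 stands at 32.3 in test group IV and 52.6 in the control group, while the bars of DIO2 and RXRG overlap between the groups.

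The order of the 5 levels was the same in both libraries, with NCOR1 first, then THRA, NCOA1, DIO2 and RXRG. The Poisson intervals of neighbouring genes in this order did not overlap in either library. Those of THRA and NCOA1, the closest pair, were from 18.7 to 22.1 FPKM and from 12.1 to 13.7 FPKM in test group IV. In the control group they were from 16.2 to 19.6 FPKM for THRA and from 13.0 to 14.7 FPKM for NCOA1.

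Ratios within a library do not depend on how the libraries are scaled. The FPKM of NCOR1 was 2.51 times that of NCOA1 in test group IV and 3.79 times in the control group, a log2 change of -0.59 (conditional exact 95% interval from -0.73 to -0.46). NCOR1 to THRA was 1.59 in test group IV and 2.95 in the control group, a log2 change of -0.89 (interval from -1.09 to -0.70). The pair with THRA was added after its values had been seen.

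**Figure D2:**
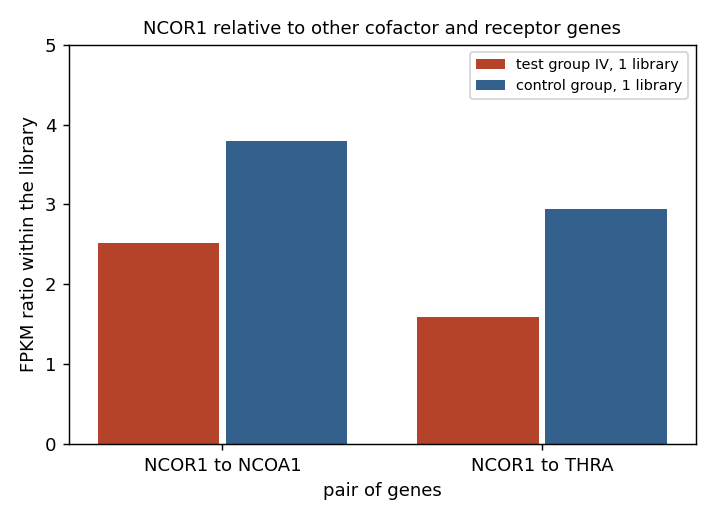
FPKM of NCOR1 divided by that of NCOA1 and of THRA within the library of test group IV (red) and the library of the control group (blue), 1 library each. The ratios are 2.51 and 1.59 in test group IV, each below the 3.79 and 2.95 of the control group.

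None of the 4 members among the expressed genes differed at least 2-fold (RXRG is under this level), where 6.4% of the 11010 expressed genes did. The intervals of THRA (higher) and NCOR1 (lower) excluded an equal level, as those of 44% of the expressed genes did. Among the 4195 genes whose mean FPKM reached 10, which include THRA and NCOR1, this share was 60.9%. A difference beyond counting error was thus common between these libraries. Being at least 1.5-fold lower was less common. At this limit, set after the values had been seen, NCOR1 and DIO2 fall, and 8.24% of the 11010 expressed genes do. Among the 4195 genes whose mean FPKM reached 10, the range in which NCOR1 is measured, 4.41% were at least 1.5-fold lower.

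**Figure D3:**
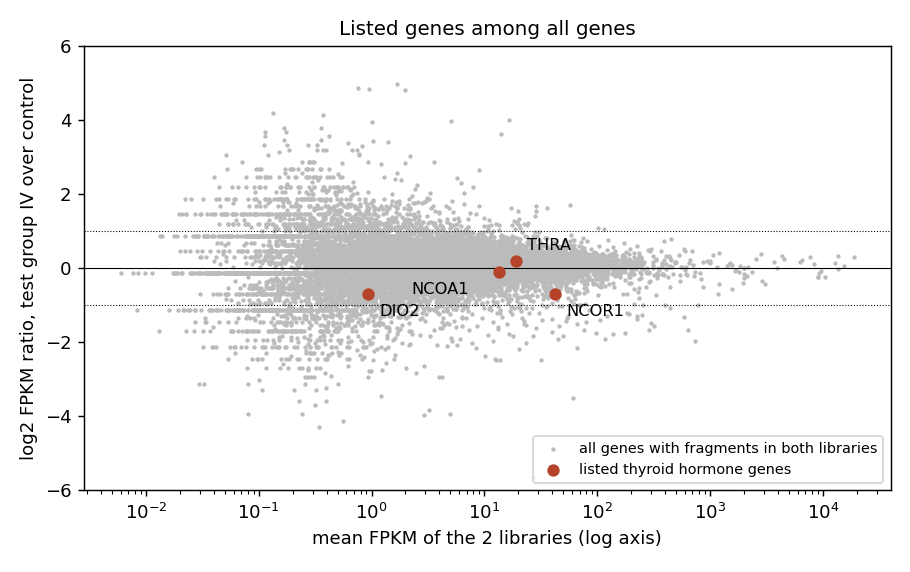
The log2 FPKM ratio of test group IV over the control group against the mean FPKM of both libraries (log axis) for all genes with fragments in both (gray), with 4 listed thyroid hormone genes in red and dotted lines at 2-fold. RXRG is not marked because no fold is given for it. NCOR1 lies at -0.70 below most genes of its level, and THRA at 0.19 lies within them.

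The bulk RNA of a muscle mixes cell types, and fewer cells of a type cannot be told apart from less RNA per cell. Adipocyte markers were also lower, with a summed FPKM of 44.5 in test group IV and 69.5 in the control group over the 4 of 6 that are listed. One of them, CIDEC, had 0 fragments in test group IV and only 5 in the control group, and its interval as deposited just included 0. The 4 of 5 listed Schwann cell markers summed to 30.4 FPKM in test group IV and 44.3 FPKM in the control group, with 2 of them lower and 2 higher. The 5 of 6 listed smooth muscle markers summed to 130.6 FPKM in test group IV and 167.1 FPKM in the control group. The 5 of 6 listed fibroblast markers summed to 367.5 FPKM in test group IV and 315.4 FPKM in the control group, though LUM among them was lower at -0.33. The 6 leukocyte markers summed to 241.6 FPKM in test group IV and 185.6 FPKM in the control group. Most of this came from CD74, with 207 FPKM in test group IV and 154 FPKM in the control group. The intervals of CSF1R, CD3E and CD79B included 0. Endothelial markers (6 of 7) stood at 50.5 FPKM in test group IV and 51.8 FPKM in the control group. As deposited, 1 of their intervals lay above 0 (FLT1), 2 lay below it (TEK and CLDN5) and 3 included it. Satellite cell markers (2 of 3) stood at 22.7 FPKM in test group IV and 23.8 FPKM in the control group. The interval of CDH15 lay below 0 and that of MYF5 included it. Melanocyte markers (6 of 8 listed) summed to 11.6 FPKM in test group IV against 0.674 FPKM in the control group. The part of these cells in the lower NCOR1 level was not tested.

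A pair of expressed genes that bring the hormone into cells were lower in test group IV. Of 9 transporter names 5 are listed and 2 were expressed genes, and the intervals of both lay below 0, also after median ratio scaling. SLC7A5, the light chain of a large neutral amino acid exchanger that also carries tyrosine and thyroid hormone, had an FPKM of 21.9 in test group IV and 36.7 in the control group, from 1551 fragments in test group IV and 2387 in the control group. Its log2 fold change was -0.75, with an interval from -0.84 to -0.65. SLC16A10, a transporter of aromatic amino acids and thyroid hormone, had an FPKM of 9.89 in test group IV and 12.7 in the control group, a log2 fold change of -0.36 with a counting interval from -0.63 to -0.09.

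The organic anion transporters were barely detected. SLCO4A1 had 11 fragments in test group IV and 14 in the control group, and SLCO1C1 and SLCO1A2 had at most 1 fragment in either library. Of all expressed genes, 15.3% had an interval below 0 and 28.6% an interval above 0. After median ratio scaling these shares were 21.3% below and 19.9% above.

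Of the hormone-binding proteins, ALB, the plasma carrier albumin, was 2.74-fold higher on added tyrosine. It had 365 fragments there (FPKM 12.2) and 122 in the control group (FPKM 4.46), with a log2 fold change of 1.46 and an interval from 1.16 to 1.76. The 2 of 6 blood markers that are listed, HBAA and HBAD, summed to 23.0 FPKM in test group IV and 23.2 FPKM in the control group. The source of the ALB fragments was not tested. CRYM, a cytosolic protein that binds triiodothyronine, had 46 fragments in test group IV and 33 in the control group, with an interval from -0.32 to 1.05.

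Deiodinases are selenoproteins, and 5 of 8 genes that insert selenocysteine are listed. The intervals of all 5 included 0, where those of 44% of all expressed genes excluded it. That share depends on the fragment count, and was 60.9% among the 4195 genes whose mean FPKM reached 10. An interval that includes 0 therefore does not show an equal level. RPL30, a ribosomal protein that also binds the selenocysteine insertion element, was the most highly expressed at 46.9 FPKM in test group IV and 44.2 FPKM in the control group. SEPHS1, related to the enzyme that makes the selenium donor, stood at 16.6 FPKM in test group IV and 17.9 FPKM in the control group, and its interval lay below 0 after median ratio scaling. EEFSEC, the elongation factor for selenocysteine, had an FPKM of 4.86 in test group IV and 5.43 in the control group. SECISBP2, which binds the selenocysteine insertion element of deiodinase mRNA, had an FPKM of 4.51 in test group IV and 3.79 in the control group, a log2 fold change of 0.25 with a counting interval from -0.04 to 0.54. SEPSECS, which makes the selenocysteine transfer RNA, stood at 4.84 FPKM in test group IV and 4.12 FPKM in the control group.

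WSB1, the ubiquitin ligase adaptor that marks DIO2 for degradation, was higher in test group IV. Its FPKM was 63.9 in test group IV and 49.4 in the control group, and the log2 fold change of 0.37 had an interval from 0.27 to 0.47. USP33 and USP20, which remove ubiquitin from DIO2, had log2 fold changes of -0.05 and -0.17, and both intervals included 0, though that of USP20 lay below it after median ratio scaling. The ubiquitin-conjugating gene UBE2J1 was lower at -0.23 (interval from -0.40 to -0.06), while UBE2G2 stood at 0.06 with an interval that included 0.

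NCOR1 works in a complex, and 6 of 8 other corepressor genes are listed, with a median log2 fold change of -0.07. None of the 6 differed by 1.5-fold, where 18.3% of all expressed genes did. HDAC3, the deacetylase that NCOR1 activates, was at 10.4 FPKM in test group IV and 10.5 FPKM in the control group. TBL1X, a WD-repeat subunit of the complex, was higher at 0.22 (interval from 0.12 to 0.31), and its relative TBL1XR1 was lower at -0.39 (interval from -0.62 to -0.16). ZBTB33, a DNA-binding partner of NCOR1, was also lower, at -0.41 (interval from -0.53 to -0.28). SIN3B, a scaffold of deacetylase complexes, stood at 16.1 FPKM in test group IV and 15.1 FPKM in the control group, and its interval included 0. Its relative SIN3A had a log2 fold change of -0.14. The interval of SIN3A included 0 as deposited and lay below it after median ratio scaling.

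Among the coactivators 12 of 15 names are listed, with a median log2 fold change of -0.03. The intervals of 2 lay above 0 and those of 4 below it, where 28.6% and 15.3% of all expressed genes did. After median ratio scaling 5 lay below, with MED12, a Mediator subunit, added. KAT2B, an acetyltransferase, was the most highly expressed at 73.9 FPKM in test group IV and 72.9 FPKM in the control group. NCOA4, which also delivers ferritin for breakdown, was higher at 0.18 (interval from 0.10 to 0.27). Of the other genes related to NCOA1 by role, NCOA3 was lower at -0.36 (interval from -0.60 to -0.11) and CREBBP at -0.33 (interval from -0.44 to -0.23), whereas EP300 was level at 0.04. PPARGC1B, a coactivator of mitochondrial genes, had 123 fragments in test group IV and 180 in the control group, a log2 fold change of -0.67 with a counting interval from -1.02 to -0.34. PPARGC1A, its better known relative, had 129 fragments in test group IV and 125 in the control group.

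The Mediator complex joins the hormone-bound receptor to RNA polymerase. Its subunit MED1, which contacts the receptor, had a log2 fold change of 0.08 with an interval that included 0. MED24 had 206 fragments in test group IV and 103 in the control group, a log2 fold change of 0.88 with a counting interval from 0.53 to 1.23. The MED24 gene, from 4741105 to 4757219 on chromosome 27, lies inside the span of THRA.

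Retinoid X receptors also pair with other nuclear receptors. The 12 names sought for these include RXRB, itself a retinoid X receptor, which is not listed. Of the 12 names, 9 are listed and 8 were expressed genes. Of these 8, 5 had an interval below 0 and none above it, also after median ratio scaling. Among all expressed genes, 15.3% lay below 0 as deposited and 21.3% after scaling. The list was written by hand with earlier results of these data known, so its share may partly reflect that choice. The difference in shares was not tested. NR4A2, an orphan receptor induced quickly by stimuli, was 3.09-fold lower, with 175 fragments in test group IV and 496 in the control group and a log2 fold change of -1.63 with a counting interval from -1.88 to -1.38. Its relative NR4A1 stood at 19.1 FPKM in test group IV and 35.3 FPKM in the control group, a log2 fold change of -0.88. NR1H3, the oxysterol receptor listed under the older name LXR, was lower at -0.37 with 47.9 FPKM in test group IV and 61.9 FPKM in the control group. PPARA, a receptor that promotes fatty acid oxidation, had 72 fragments in test group IV and 103 in the control group. PPARG had 23 fragments in test group IV and 38 in the control group. Its log2 fold change was -0.85 with a counting interval from -1.66 to -0.06. RARA and PPARD had log2 fold changes of 0.18 and 0.12, and both intervals included 0.

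Genes known from mammals or birds to respond to thyroid hormone did not move one way. Of 23 names 15 are listed and 13 were expressed genes, with a median log2 fold change of -0.10. Of the 13, 3 had an interval above 0 and 5 below it, where 28.6% and 15.3% of all expressed genes did. No expected direction was set for each gene, so neither these counts nor the median measures a hormone response. KLF9, a transcription factor regarded as a direct target of the receptor, had 203 fragments in test group IV and 200 in the control group, a log2 fold change of -0.10 with an interval that included 0. ME1, the malic enzyme of lipogenesis and a classic target in chicken liver, was at 36.8 FPKM in test group IV and 39.1 FPKM in the control group, and its interval lay below 0 only after median ratio scaling. CPT1A, which admits fatty acids to mitochondria, was at 27.2 FPKM in test group IV and 24.9 FPKM in the control group, a log2 fold change of 0.12 whose interval included 0. ATP2A2, the calcium pump of slow muscle, had a log2 fold change of 0.14 with an interval that included 0. PLN, the inhibitor of that pump, had only 3 fragments in test group IV and 4 in the control group.

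UCP3, the avian muscle uncoupling protein, was the most abundant of those that were lower. It had an FPKM of 525 in test group IV and 1050 in the control group, from 11589 fragments in test group IV and 21245 in the control group, a 2.00-fold lower level that falls just short of 2-fold before rounding and passes it, at a log2 fold change of -1.09, after median ratio scaling. PDK4, a kinase that shuts down pyruvate oxidation, was 3.21-fold lower, at 305 FPKM in test group IV and 981 FPKM in the control group. The transcription factors FOXO1 and FOXO3 were 3.92-fold and 2.86-fold lower in test group IV. PDK4, FOXO1 and FOXO3 are also known to respond to fasting and to glucocorticoids. ATP1B1, a sodium pump subunit, was lower at -0.73.

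In the other direction, MYOD1, a regulator of muscle differentiation, had an FPKM of 89.5 in test group IV and 54.4 in the control group, a log2 fold change of 0.72 with a counting interval from 0.63 to 0.81. GPD2, the mitochondrial glycerol phosphate dehydrogenase long used as a measure of thyroid state, was higher at 138 FPKM in test group IV and 109.9 FPKM in the control group, a log2 fold change of 0.33 with a counting interval from 0.27 to 0.40. SLC25A4, which exchanges ATP and ADP across the inner mitochondrial membrane, stood at 1005 FPKM in test group IV and 874 FPKM in the control group. Its log2 fold change of 0.20 exceeded counting error and was close to the median of all genes.

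**Figure D4:**
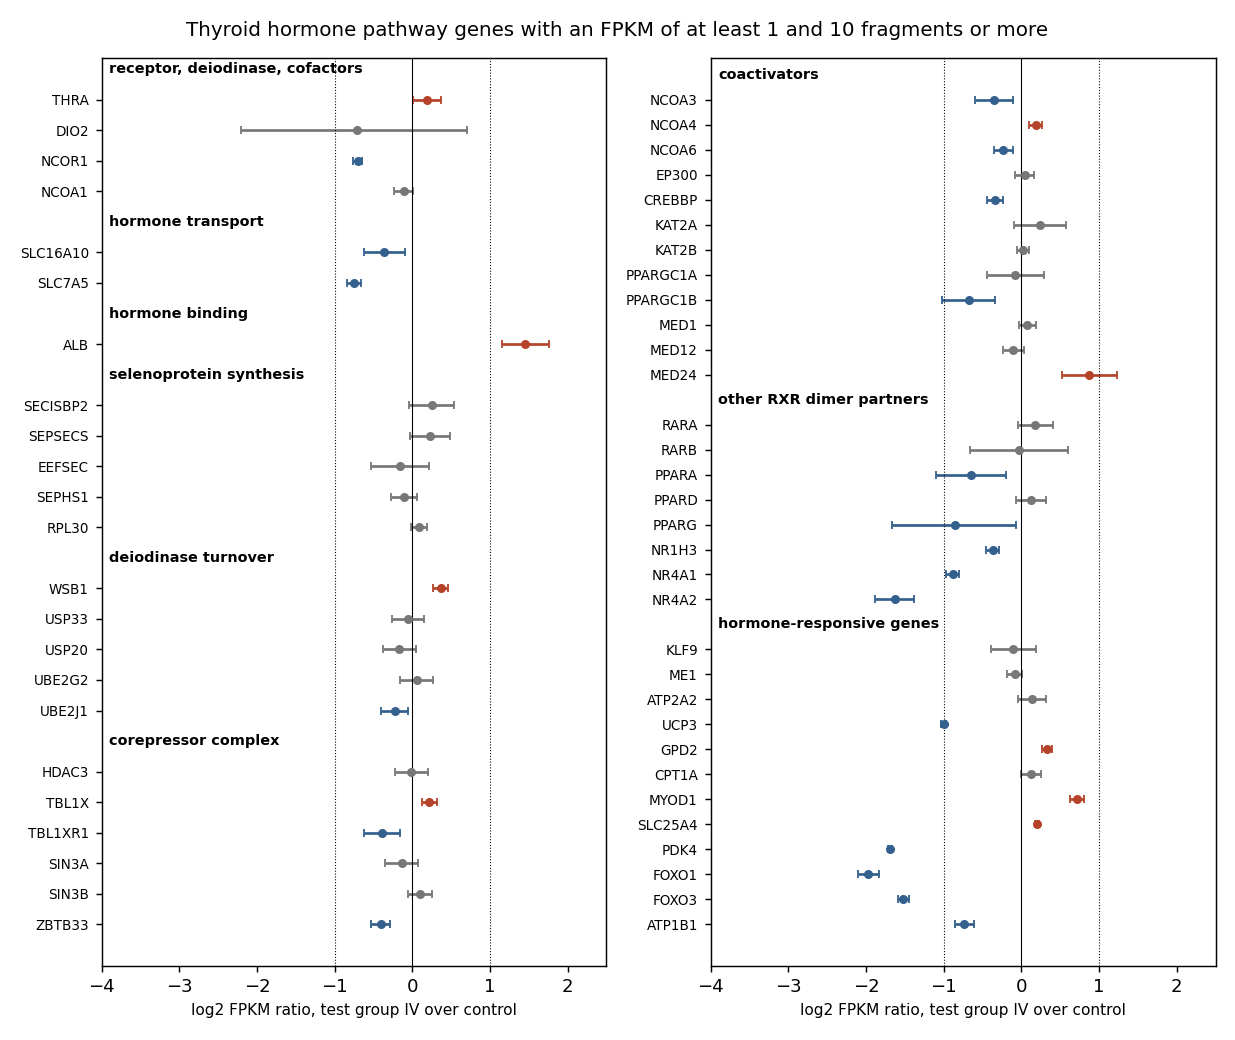
The log2 FPKM ratio of test group IV over the control group, with its 95% counting interval, for each expressed pathway gene with 10 fragments or more in both libraries together, grouped by role. Red marks intervals above 0, blue intervals below 0 and gray those that include 0. Both transporters lie below 0, the intervals of all 5 selenoprotein synthesis genes include 0 (4 of 5 after median ratio scaling), and FOXO1 lies farthest down at -1.97.

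Over all these lists without the members, 52 were expressed genes. Of these, 8 (15.4%) had an interval above 0 and 19 (36.5%) below it, where 28.6% and 15.3% of all expressed genes did, and 1 gene was at least 2-fold higher (ALB) and 4 at least 2-fold lower, where 3.1% and 3.31% of all expressed genes were. The 4 are NR4A2, PDK4, FOXO1 and FOXO3, and after median ratio scaling UCP3 made them 5, where 3.97% of all expressed genes were at least 2-fold lower. After median ratio scaling 8 lay above and 24 below, where 19.9% and 21.3% of all expressed genes did. The lists were written by hand from the known biology, with earlier results of these data known, so the shares may partly reflect that choice. The genes of the lists are also not independent of each other, and the difference in shares was not tested.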

How the data were processed

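Per the paper, the authors used Seqtk for trimming, TopHat 2.0.9 for mapping to Galgal5 and StringTie 1.3.0 for counting fragments. The authors deposited a whole-number fragment count and an FPKM value per gene for each library, and the deposited FPKM values were computed with a Perl script. The submitters' notes also name HISAT2, whose role is not given in the sources used here. The title of the series speaks of skin, whereas the labels and methods speak of breast muscle, which was taken as the tissue.

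Libraries were grouped by their diet label. Genes were matched by symbol, and older symbols were sought in a RefSeq gene table of GRCg7b used for names only. Of the 104 names in the pathway lists, 65 matched, 1 of them by an older symbol. Further genes of these lists are not reported here and were left out of their counts and medians. No symbol was given for 5006 genes, and 15 symbols had been turned into dates. Transcript lengths were recovered from the ratio of count to FPKM (whole to within 0.1 bases for 89.9% of genes).

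Each fold change divides the FPKM of test group IV by that of the control group, with no pseudocount. Expressed genes are those that reach an FPKM of 1 in either library. Exact Clopper-Pearson 95% intervals of the share of fragments were converted to folds with the depth ratio of the FPKM values, 1.09025. Levels carry exact Poisson intervals. All cover counting error only. With 1 library per group no dispersion can be estimated, so edgeR 4.0.16 and DESeq2 1.42.0 (R 4.3.3) were used for alternative scaling alone. Other alternatives were median ratio scaling, added constants of 0.1 and 1, other filters and a 99% interval. The other tools were Python 3.11.15, scipy 1.17.1, pandas 2.3.3 and numpy 2.4.6, and the intervals were tested on simulated data. The 9 members are all named. Of a list, genes past 2-fold or else the 3 most highly expressed were to be named, and any gene of the transporter and hormone-responsive lists with an FPKM of at least 1 could be. Other list genes (CRYM, SLCO genes, those given for their role or interval) were chosen after their values were seen. The members and lists were chosen with earlier results of these data known.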

Additional observations from a re-analysis of the deposited data

How the results depend on the processing

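Of 99 values recomputed under alternatives for 17 results, 86 stayed within the limits set for them (a member's own counting interval, a shift of 0.1 in a list median, or 1.5 times a count). Part of this was fixed in advance. Scaling shifts every log2 fold change by -0.09 (median ratio and TMM) or -0.08 (DESeq2 size factors), so no list median could pass its limit. Within-library ratios of fragments and of FPKM change alike by arithmetic. NCOR1 stayed lower, at -0.79 with median ratio scaling, -0.79 with TMM and -0.78 with DESeq2 size factors. Each of these values lies outside its own counting interval from -0.76 to -0.64, and so past the limit set for it. The count of members past 2-fold, 0 in the report, was 1 with no filter on low values (RXRG, with 3 fragments in all). With no filter 16.2% of all 15073 listed genes were past 2-fold. At 1.5-fold, a limit chosen after seeing the data, the count was 2, and 18.3% of the 11010 expressed genes were past it. With a 99% interval, for which no share over all genes is given, 1 member (NCOR1) had an interval that excluded 0, in place of 2. The count was 2 under each scaling, but NCOA1 (lower) then took the place of THRA. The transporter median of -0.55 was -0.42 with no filter. That of the binding proteins, 1.46 from ALB alone, was 1.28 with 1 added, and 0.91 both with no filter and with at least 10 fragments. That of the other RXR partners, -0.51, was -0.40 with 1 added, and -0.37 both with no filter and with at least 10 fragments. Among all genes, 3152 had an interval above 0 and 1688 below it, against 2193 and 2347 after median ratio scaling. No paired analysis was possible because each group has 1 library. Depth limits DIO2, RXRG and the SLCO genes.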

Other observations

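The span given for THRA overlaps 12 listed genes of chromosome 27, of which 11 lie wholly inside it, and reads were not separated here between them. The 12 were not filtered on level. The intervals of 4 of them lay above 0 and that of 1 below, where 22% and 12.3% of all 15073 listed genes did. With median ratio scaling 1 lay above and 1 below. The median log2 fold change of the 12 was 0.14. MED24 had a log2 fold change of 0.88 and was higher under median ratio scaling too. MIEN1 (0.28), PGAP3 (0.60) and IKZF3 (1.14) had intervals above 0 that included 0 after median ratio scaling. IKZF3, a lymphocyte transcription factor, rests on 24 fragments in test group IV and 10 in the control group. ERBB2, a growth factor receptor, was lower at -0.28, with 210 fragments in test group IV and 234 in the control group. PSMD3, a proteasome subunit and the gene of this stretch with the most fragments, THRA included, had 1391 fragments in test group IV and 1222 in the control group, a log2 fold change of 0.06 with an interval that included 0.

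Of 10 genes of hormone synthesis and thyroid identity, TSHR, the thyrotropin receptor, is the 1 that is listed, with 0 fragments in test group IV and 3 in the control group. MYH7B, a slow myosin that was left out of the list counts because its FPKM was under 1 in both libraries, had 22 fragments in test group IV and 81 in the control group, with a log2 fold change of -2.01 and an interval from -2.76 to -1.31. Of the genes described, SECISBP2 and KLF9 lie on the Z chromosome, where 508 expressed genes had a median log2 fold change of 0.13. The 35 listed genes of the W chromosome, which only hens carry, took 0.0120% of the fragments in test group IV and 0.0122% in the control group.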
